A study of Homo sapiens with 16 samples.

Results

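The topoisomerase genes and the genes that act on topoisomerase damage were described in MiaPaCa2 and PANC1, established human cell lines grown from pancreatic ductal adenocarcinomas. The 9 genes were taken by symbol from the deposited gene table of 63677 identifiers, and all 9 passed the filter on low counts in both lines. They are TOP1, TOP1MT, TOP2A, TOP2B, TOP3A and TOP3B, the topoisomerases, TDP1 and TDP2, the phosphodiesterases that remove trapped topoisomerases, and TOPBP1, a checkpoint scaffold that binds topoisomerase II. Each line was kept as an untreated control or exposed for 24 h to 40 nmol/L gemcitabine, to 50 μmol/L genistein or to both (co-treatment), with 2 replicates per group, labelled I and II, and 16 libraries in all. The study's methods call the replicates biological, and nothing in the labels says whether I and II came from separate cultures. The tests measure the spread between these libraries. Gemcitabine is a deoxycytidine analogue that stalls DNA synthesis, and genistein is a soy isoflavone that binds oestrogen receptors and is known as an inhibitor of topoisomerase II. Both lines carried no engineered allele or transgene in the labels, and each stands for 1 tumour.

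Topoisomerases relieve the twist and tangles that arise when the strands of DNA are separated or copied. Type I enzymes cut a single strand, TOP1 in the nucleus and TOP1MT in mitochondria, and the TOP3A and TOP3B enzymes pass a single strand to unlink joined DNA or RNA. Type II enzymes cut both strands, and their alpha form, TOP2A, is made by dividing cells and peaks in G2 and mitosis, whereas the beta form, TOP2B, is present in dividing and resting cells alike. When an enzyme is trapped on DNA, TDP1 hydrolyses its bond to the 3′ end and TDP2 its bond to the 5′ end.

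The genes lie apart in the genome, in GRCh37 coordinates. TOP1 is at chr20:39657462-39753127 on the plus strand, TOP2A at chr17:38544777-38574148 and TOP2B at chr3:25639469-25706400 on the minus strand. TOP3A is at chr17:18174742-18218321, TOP3B at chr22:22311397-22337210, TDP2 at chr6:24650207-24667158 and TOPBP1 at chr3:133317019-133381224, all on the minus strand, and TDP1 is at chr14:90421283-90511108 on the plus strand. TOP3B shared 90.8% of its exon bases with PPM1F-AS1, a long noncoding RNA of the opposite strand, and since the strand setting of the counting is not given in the sources used here, its values are uncertain. The exons of TOP1 and TOPBP1 overlapped opposite-strand noncoding genes over 2.01% and 1.47% of their bases.

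TOP1, TOP2A and TOP2B are shown with their promoters because they were the 3 members called lower with gemcitabine in MiaPaCa2. There 29.6% of all genes tested were called, and none of the 3 members was called after the correction for GC content given below. Whether the 3 are regulated together was not tested. The sequences are RefSeq's for GRCh38.p14, a later build than the files', and run 5′ to 3′ on the strand of the gene from 250 bases before to 50 after a listed start. Capitals mark the CCAAT box (CCAAT or ATTGG), which the factor NF-Y binds, and the cell cycle homology element (TTTGAA or TTCAAA), each searched on both strands. The windows were chr17:40417847-40418146 for TOP2A, chr20:41028572-41028871 for TOP1 and, for the start of TOP2B that lies farther upstream, chr3:25664858-25665157.
TOP2A: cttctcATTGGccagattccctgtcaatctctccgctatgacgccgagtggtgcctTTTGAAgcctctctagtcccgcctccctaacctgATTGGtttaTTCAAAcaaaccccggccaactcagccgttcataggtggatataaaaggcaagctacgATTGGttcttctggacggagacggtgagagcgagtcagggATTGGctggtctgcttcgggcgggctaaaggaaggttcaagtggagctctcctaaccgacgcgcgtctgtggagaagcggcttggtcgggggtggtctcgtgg
TOP2B: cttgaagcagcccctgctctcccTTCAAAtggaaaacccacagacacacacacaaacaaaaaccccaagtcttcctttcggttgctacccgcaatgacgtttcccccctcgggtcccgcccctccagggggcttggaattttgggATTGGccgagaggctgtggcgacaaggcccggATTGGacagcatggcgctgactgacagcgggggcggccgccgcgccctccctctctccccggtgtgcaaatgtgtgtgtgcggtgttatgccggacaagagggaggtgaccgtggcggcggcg
TOP1: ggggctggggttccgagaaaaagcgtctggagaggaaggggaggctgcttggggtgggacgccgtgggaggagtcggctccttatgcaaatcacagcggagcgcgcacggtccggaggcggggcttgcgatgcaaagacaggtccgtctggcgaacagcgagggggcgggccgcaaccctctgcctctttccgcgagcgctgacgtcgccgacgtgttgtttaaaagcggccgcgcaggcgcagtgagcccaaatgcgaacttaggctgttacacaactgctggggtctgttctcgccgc
The TOP2A promoter held 4 CCAAT boxes, all in the inverted form, beginning 244, 160, 93 and 53 bases before the start, and 2 TTTGAA elements, at 194 and 151 bases. The TOP2B window held 2 CCAAT boxes and 1 TTTGAA element, and the window at the other listed start of TOP2B held neither. Neither was present in the TOP1 window. Of 35116 promoters of the same length, 34.6% held at least 1 CCAAT box, 0.99% held 4 or more, 15.2% held TTTGAA and 5.9% held both elements. Among the other members whose promoters were searched, TDP1 held 1 TTTGAA element and TOP3A, TOP3B, TDP2 and TOPBP1 held neither. TOP1MT was not among those searched.

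Each library held between 12943482 and 31991860 counted reads, and the least counted member had 254 reads in its lowest library. KRT8, KRT18 and KRT19, keratins of ductal epithelium, were at 56.5 FPKM or more in every library (fragments scaled by transcript length and library size), whereas KRT7 ran from 0.170 to 1.70 FPKM in MiaPaCa2 and from 3.95 to 21.1 in PANC1, EPCAM was listed at 0 in all MiaPaCa2 libraries, CDH1 reached 0.0213 FPKM there, and CFTR was at or near 0 in both. Of the 11 markers of other cell types, 10 stayed at or below 0.367 FPKM, and CD68 ran from 14.2 to 37.6 FPKM in MiaPaCa2 and from 108.3 to 221 in PANC1. Of the 10 ductal markers, 3 of 5 tested were lower with gemcitabine and with co-treatment in MiaPaCa2, and 2 and 5 of 8 tested in PANC1, and none was higher. Over all genes tested, 14.6% and 20.2% were lower in these MiaPaCa2 comparisons, and 3.03% and 6.9% in those of PANC1. With genistein alone, 1 marker was higher and 1 lower in MiaPaCa2, and 0 were called in PANC1. The part of these markers in the results was not tested. In such bulk RNA, a smaller share of cells in a given cell cycle phase and less RNA per cell cannot be told apart. The libraries differed in how counts followed the GC content of exons, by a log2 slope per 10 percentage points of -0.22 and -0.13 in the MiaPaCa2 controls, 0.14 and 0.05 with gemcitabine, 0.04 and 0.27 with co-treatment, and 0.28 and -0.07 in the PANC1 controls, whose replicates stood farthest apart (chi-square per degree of freedom 32, against 2.70 to 19.7 in the other groups). The exon GC content of the members was 35.8% for TOP2B, 38.7% for TOP2A, 41.8% for TOPBP1 and TDP2, 42.3% for TOP1, 47.2% for TDP1, 50.4% for TOP3A, 57.9% for TOP1MT, which lies on chromosome 8, and 58.8% for TOP3B, against a median of 48.0% over the genes tested in MiaPaCa2. Values after a per-library correction for GC content are therefore given beside the calls that they change.

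TOP2A was the most abundant member in every group, and TOP2B had the lowest mean in every group. In untreated MiaPaCa2, TOP2A stood at 161 ± 0.703 FPKM (SD, n = 2), followed by TOPBP1 at 54.6 ± 0.495, TOP3A at 48.9 ± 1.91 and TOP1 at 45.9 ± 0.856. TDP2 at 29.2 ± 1.64, TOP3B at 25.7 ± 1.18, TOP1MT at 23.6 ± 3.01, TDP1 at 18.4 ± 4.24 and TOP2B at 17.0 ± 1.09 FPKM came next. The replicates of neighbours in this order did not overlap down to TOP3B, whereas TOP3B and TOP1MT, TOP1MT and TDP1, and TDP1 and TOP2B did overlap. In untreated PANC1, the order was TOP2A at 88.5 ± 34.5 FPKM, TOPBP1 at 43.6 ± 18.9, TOP3A at 36.5 ± 2.74, TDP2 at 22.7 ± 5.13, TDP1 at 22.6 ± 2.89, TOP1 at 21.9 ± 4.52, TOP1MT at 20.9 ± 0.155, TOP3B at 13.2 ± 0.417 and TOP2B at 9.58 ± 4.55. TOPBP1 and TOP3A overlapped, as did TDP2, TDP1, TOP1 and TOP1MT with each other, and the remaining neighbours did not. The ratio of TOP2A to TOP2B was 9.52 ± 0.656 in untreated MiaPaCa2 and 9.44 ± 0.884 in untreated PANC1 on the FPKM scale, and 26.8 ± 0.943 and 27.1 ± 2.82 when counts were divided by exon length, so that the order of both ends held on either scale and the size of the gap did not. TDP2 came next after TOP2A in both lines when counts per exon length replaced FPKM.

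**Figure D1:**
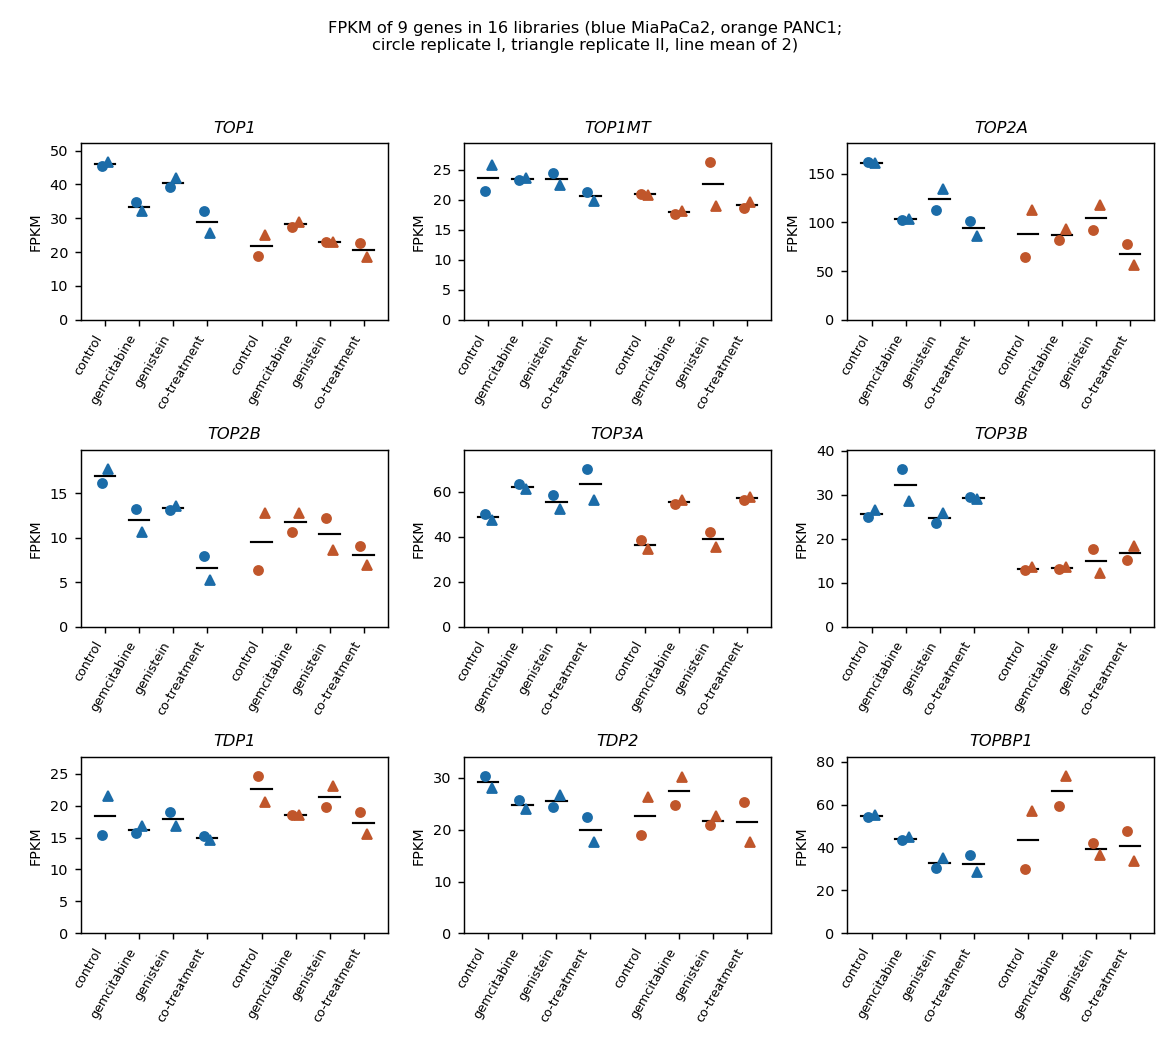
FPKM (vertical axes, starting at 0) of the 9 genes in each of the 16 libraries, with circles for replicate I, triangles for replicate II and a line for the mean of the 2. In MiaPaCa2 the control points of TOP1, TOP2A, TOP2B, TDP2 and TOPBP1 lie above all treated points, and in PANC1 the control points of TOP2A are spread from 64.1 to 112.8 FPKM.

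The untreated lines were compared to learn which members differed before any drug was given. Of the 9 genes, 6 were called, 5 of them lower in PANC1 and TDP1 higher, against 52.3% of the 17863 genes tested (24.3% lower and 27.9% higher). TOP1, the main nuclear enzyme that relaxes supercoils, had 198 and 204 CPM (counts scaled to library size by TMM, replicates I and II) in MiaPaCa2 and 83.6 and 103.1 in PANC1, a log2 difference of -1.10 (SE 0.11, adjusted p = 1.29e-06). Neither TOP1 nor TOP2A overlapped between the lines. TOP2A was at 799 and 748 CPM in MiaPaCa2 and 344 and 537 in PANC1 (log2 difference -0.83, SE 0.18, adjusted p = 0.00136). TOP2B was at 85.0 and 83.6 against 34.6 and 62.7 CPM (-0.82, SE 0.24, adjusted p = 0.00963), and fell short of the test without PANC1 control I (-0.46, adjusted p = 0.063). TOP3B differed by -0.84 (SE 0.14) and TOP3A, which dissolves joined DNA molecules with BLM, by -0.43 (SE 0.12). The TOP3A difference was lost without PANC1 control II (-0.21), and that of TDP1 (0.41, SE 0.10, adjusted p = 0.00365) without MiaPaCa2 control I (0.28) or PANC1 control I (0.35). TDP2 (-0.40, SE 0.16), TOPBP1 (-0.37, SE 0.22) and TOP1MT (-0.23, SE 0.13) were not called. TDP2 and TOPBP1 were called without PANC1 control II (-0.57 and -0.73), and TOP1MT without MiaPaCa2 control I (-0.48) and after the GC correction (-0.41).

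Gemcitabine was compared with control in MiaPaCa2 to see how the members responded to stalled DNA synthesis. TOP1, TOP2A and TOP2B fell by 0.58, 0.56 and 0.70 on the log2 scale, 3 of 9 members against 29.6% of the 16064 genes tested (14.6% lower and 15% higher), and no member was called higher. TOP1 was at 198 and 204 CPM in the controls and 143 and 136 with gemcitabine (SE 0.10, adjusted p = 0.000608). TOP2A, the form of dividing cells, went from 799 and 748 CPM to 534 and 554 (SE 0.12, adjusted p = 0.00238). TOP2B went from 85.0 and 83.6 CPM to 55.2 and 52.6 (SE 0.15, adjusted p = 0.00281). In each of the 3 genes both treated libraries were below both controls, and the calls remained without any single library. With all 16 libraries in a model, TOP1 was called (-0.52) and TOP2A (-0.51, adjusted p = 0.0611) and TOP2B (-0.64, adjusted p = 0.0767) were not. TDP2 (-0.35, SE 0.11) and TOPBP1 (-0.36, SE 0.11) passed the adjusted p but not the fold threshold of 0.4, as did TOP3A in the other direction (0.24, SE 0.09). TOP1MT, TOP3B and TDP1 differed by -0.18, 0.27 and -0.07 and did not pass.

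These calls moved with the GC content of the genes. Over all genes tested in this comparison the median log2 fold change was -0.35 for exon GC contents of 35 to 40%, -0.18 for 40 to 45% and 0.36 for 60 to 65%, and 34.6%, 21.9% and 3.07% of the genes in these ranges were called lower. After the GC correction TOP1 stood at -0.37 (SE 0.07, adjusted p = 0.00108), under the fold threshold, TOP2A at -0.20 (SE 0.06, adjusted p = 0.0215) and TOP2B at -0.20 (SE 0.08, adjusted p = 0.0644), and none of the 3 was called. TOP1MT, GC-rich and mitochondrial, was the 1 member called after the correction, at -0.40 (SE 0.11, adjusted p = 0.00798), against 27.2% of genes. The part that GC content has in each fall was not tested.

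**Figure D2:**
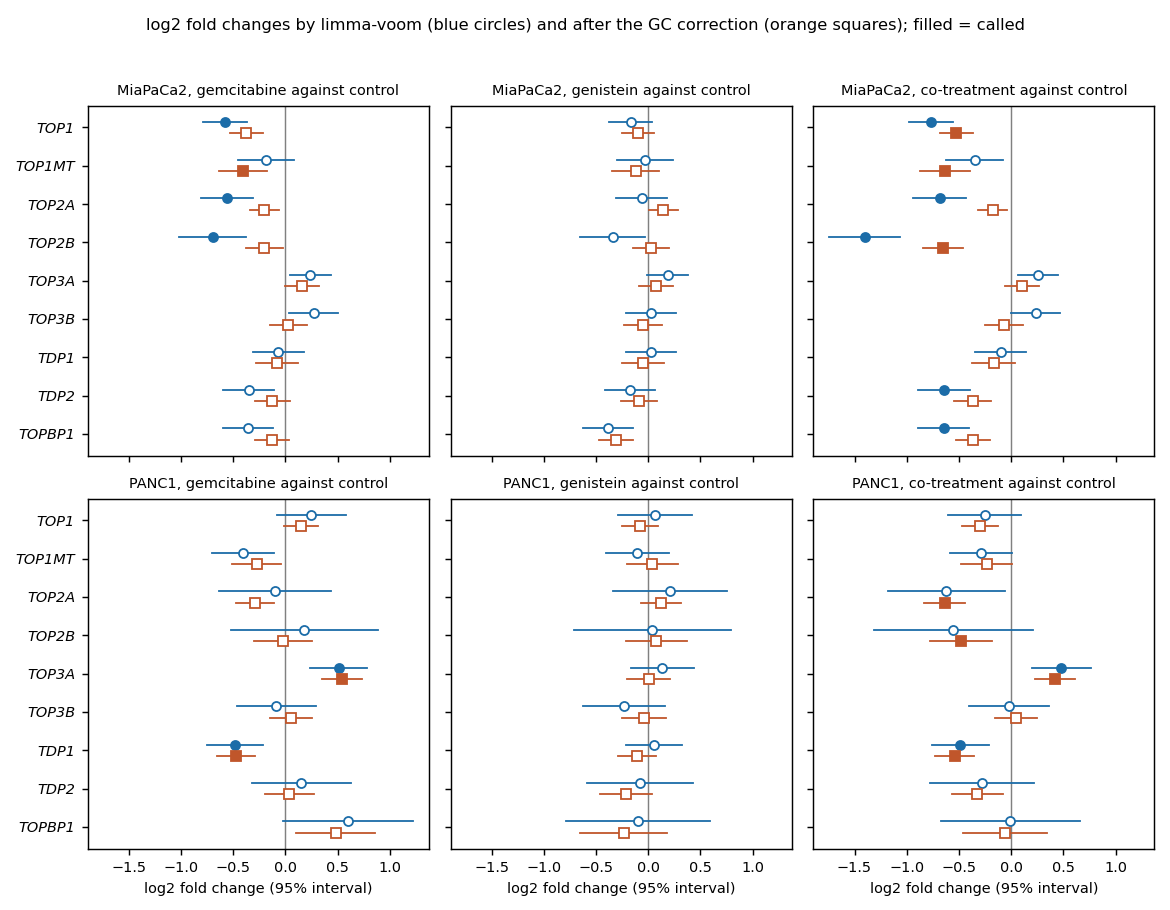
Log2 fold changes of the 9 genes (points) with 95% intervals (lines) for each treatment against control in MiaPaCa2 (top) and PANC1 (bottom), by limma-voom (blue circles) and after the GC correction (orange squares), filled where called. In MiaPaCa2 TOP2B lies farthest to the left with co-treatment, at -1.40 and, corrected, at -0.65, and in PANC1 TOP3A and TDP1 are filled on both scales with gemcitabine and with co-treatment.

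Genistein alone, the topoisomerase II inhibitor of the pair, gave no called member in MiaPaCa2, where 8.31% of genes were called. At an unadjusted p under 0.05 there were 2 members, TOP2B and TOPBP1, and edgeR and DESeq2 called none. TOP2A had 723 and 772 CPM with genistein against 799 and 748 in the controls, so the groups overlapped and the log2 difference was -0.06 (95% interval -0.31 to 0.18). TOP2B was at 60.2 and 73.6 against 85.0 and 83.6 CPM, below both controls, with a log2 difference of -0.34 (95% interval -0.65 to -0.03, adjusted p = 0.148) that turned to 0.03 after the GC correction. TOPBP1 was at 107.1 and 114.8 CPM against 147 and 141, and its difference of -0.39 (SE 0.11, adjusted p = 0.0407) lay just under the fold threshold. Library size in place of TMM put it past the threshold, at -0.42, and the GC correction gave -0.31. The other 6 members lay between -0.17 and 0.18.

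The deposited FPKM gave larger differences than the counts for TOP2A and TOPBP1 in these libraries. On the log2(FPKM + 1) scale TOP2A differed by -0.39 (SE 0.11, adjusted p = 0.113) and TOPBP1 by -0.72 (SE 0.13, adjusted p = 0.0461). TOP2A-201, the full-length isoform, was at 107.8 and 99.99 FPKM in the controls and 95.7 and 103.5 with genistein, and these overlapped. TOP2A-202, an annotated coding fragment of 420 nucleotides, was at 30.1 and 27.1 FPKM in the controls and 0.158 and 3.99 with genistein. This short isoform made up 70.4% of the difference in TOP2A FPKM, of -37.6, and TOP2A-201 made up 11.4%. For TOPBP1 the difference of -21.8 FPKM was spread over TOPBP1-204 (26.6%), TOPBP1-209 (18.3%), TOPBP1-201 (18.0%) and TOPBP1-208 (15.8%), of which TOPBP1-201 is the full-length form and the others, of 402 to 898 nucleotides, are annotated as retained introns or as a target of nonsense-mediated decay. The files give no error for the split of short single reads between isoforms.

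**Figure D3:**
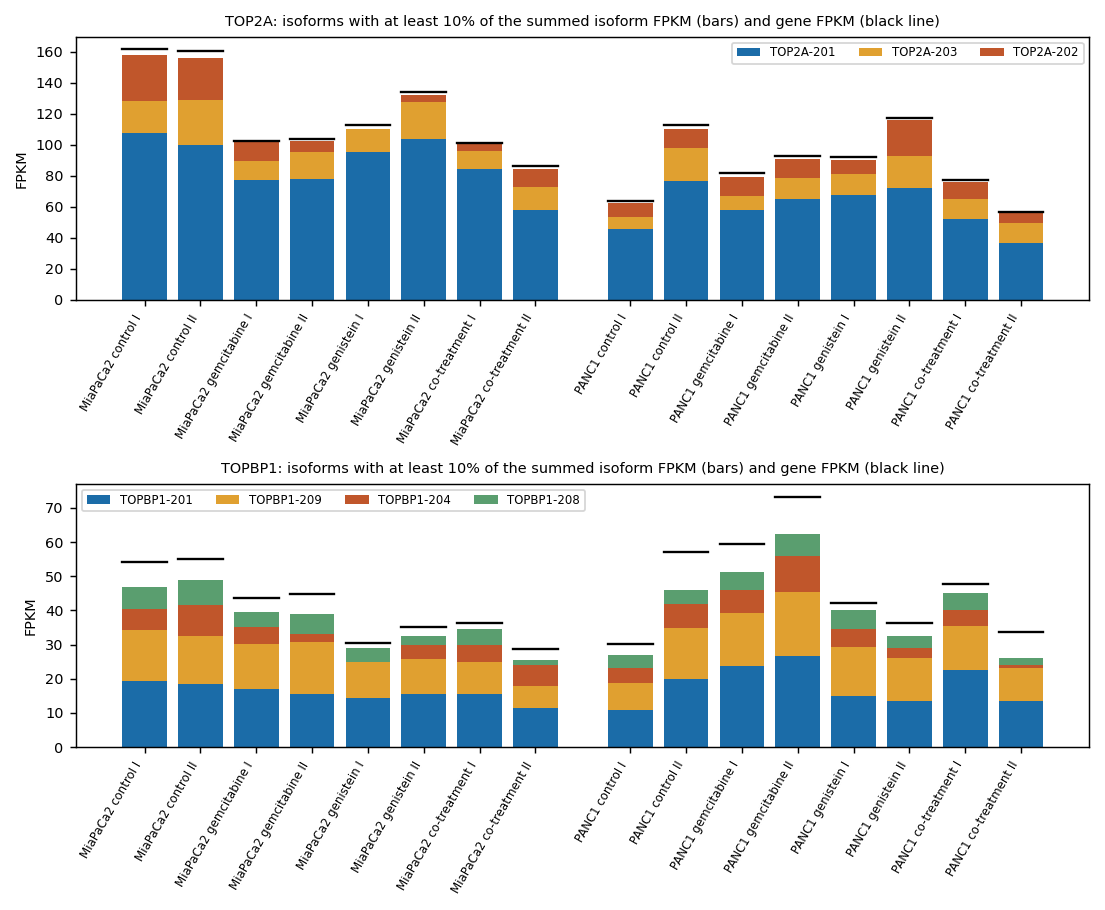
FPKM of the isoforms of TOP2A (top) and TOPBP1 (bottom) that hold at least 10% of their gene's summed isoform FPKM, stacked per library, with the gene's FPKM as a black line. The segment of TOP2A-202 is near 0 in both MiaPaCa2 genistein libraries while that of TOP2A-201 is 95.7 and 103.5 FPKM there.

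Co-treatment in MiaPaCa2 moved more members, and TOP2B most of them. TOP1, TOP2A, TOP2B, TDP2 and TOPBP1 fell, 5 of 9 members against 40.5% of genes (20.2% lower and 20.3% higher). TOP2B was at 40.3 and 27.6 CPM with co-treatment against 85.0 and 83.6 in the controls, and fell by 1.40 on the log2 scale (SE 0.16, adjusted p = 1.48e-05). TOP1 at 134 and 113.2 CPM fell by 0.77 (SE 0.10, adjusted p = 3.93e-05) and TOP2A at 582 and 434 CPM by 0.68 (SE 0.12, adjusted p = 0.000352). All libraries with co-treatment were below all controls for these genes. TDP2, which frees DNA ends from topoisomerase II, was at 49.5 and 41.1 CPM against 70.0 and 65.0 and fell by 0.65 (SE 0.11, adjusted p = 0.00048). TOPBP1 was at 108.5 and 85.5 CPM against 147 and 141 and fell by 0.64 (SE 0.11, adjusted p = 0.000428). The 5 calls remained without any single library, over ranges of -1.69 to -1.09 for TOP2B, -0.91 to -0.61 for TOP1, -0.91 to -0.44 for TOP2A, -0.80 to -0.48 for TDP2 and -0.83 to -0.44 for TOPBP1. After the GC correction TOP2B (-0.65, SE 0.09) and TOP1 (-0.53, SE 0.07) were still called, and TOP1MT was called as well (-0.63, SE 0.11, from -0.35, SE 0.13), against 39.1% of genes. TOP2A at -0.18 (SE 0.06), TDP2 at -0.37 (SE 0.08) and TOPBP1 at -0.37 (SE 0.08) then fell short of the fold threshold. TOP1MT was also called without MiaPaCa2 control I (-0.56). TOP3A (0.26, SE 0.09, adjusted p = 0.0282) was under the fold threshold, and TOP3B (0.24) and TDP1 (-0.10) did not pass.

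Co-treatment was set against gemcitabine to see what genistein added. TOP2B was the 1 member called, against 5.88% of genes (1.83% lower and 4.05% higher): it was at 40.3 and 27.6 CPM with both drugs and 55.2 and 52.6 with gemcitabine alone, and fell by 0.71 on the log2 scale (SE 0.16, adjusted p = 0.0216). The GC correction gave -0.45 (SE 0.09, adjusted p = 0.00558). The call rested on single libraries, since TOP2B stood at -0.40 without co-treatment II, at -0.67 without gemcitabine I and at -0.74 without gemcitabine II, none of them called, and with all 16 libraries in a model it was not called either (-0.70, adjusted p = 0.216). Without co-treatment I the difference was -0.99, and TDP2 (-0.44) and TOPBP1 (-0.47) were called too. TDP2 and TOPBP1 had differed by -0.29 each with all libraries (SE 0.12 and 0.11), and TOP1 by -0.19 (95% interval -0.41 to 0.03). TOP2A differed by -0.12 (95% interval -0.38 to 0.13). The ratio of TOP2A to TOP2B reads was 14.5 and 15.7 with co-treatment, above the range of 8.95 to 12.01 in the other 6 MiaPaCa2 libraries. In PANC1 it was 8.12 and 9.26 with co-treatment, within the range of 7.48 to 11.54 in the other 6 libraries. In the test of the interaction, which asks whether the effect of both drugs departs from the sum of their log2 effects, no member passed by limma-voom, edgeR or DESeq2 in MiaPaCa2 (0.0249% of genes by limma-voom) or PANC1 (0%). At an unadjusted p under 0.05 there were 0 members in MiaPaCa2 and 1 in PANC1, TOP1 (-0.56, SE 0.22).

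**Figure D4:**
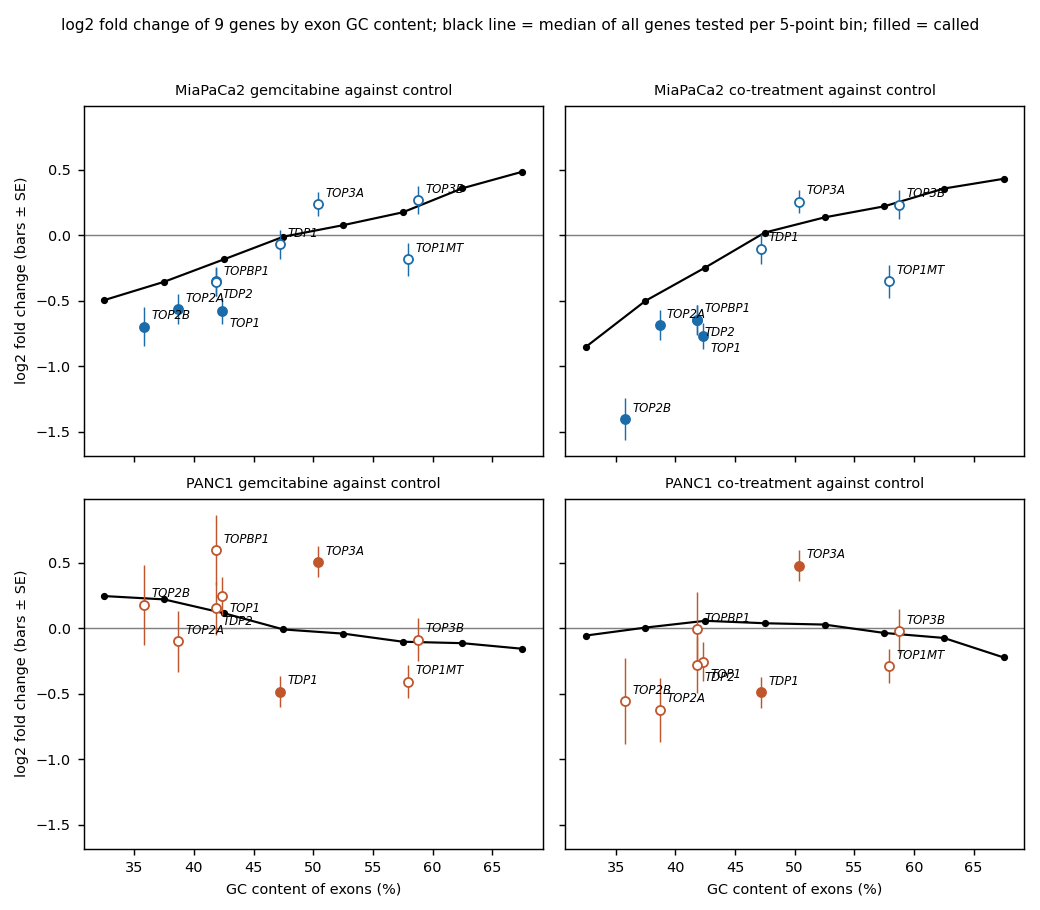
Log2 fold change of the 9 genes (points, bars ± SE, filled where called) against the GC content of their exons in percent, with the median of all genes tested in bins of 5 points as a black line. With gemcitabine and with co-treatment, the treatments drawn, the line rises with GC content in MiaPaCa2. There TOP1, TOP2A and TOP2B lie below it, with TOP2B farthest below under co-treatment, and so do TOP1MT, TDP2, TOPBP1 and, close to it, TDP1. In PANC1 the line is flatter and falls with GC content under gemcitabine, from 0.25 to -0.16, and the called TOP3A and TDP1 lie off it. So do members not called there, among them TOP2A (-0.62) and TOP2B (-0.55) with co-treatment and TOPBP1 (0.60) and TOP1MT (-0.41) with gemcitabine.

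PANC1 gave calls in other members, and a smaller share of all genes was called there than in MiaPaCa2 (29.6% with gemcitabine). The numbers of members called in the 2 lines are therefore read beside these shares. With gemcitabine, TOP3A rose and TDP1 fell, 2 of 9 members against 7.52% of genes (4.49% higher and 3.03% lower). TOP3A was at 89.999 and 70.5 CPM in the controls and 113.8 and 104.4 with gemcitabine, and rose by 0.51 on the log2 scale (SE 0.12, adjusted p = 0.0401). TDP1 was at 51.0 and 49.1 CPM in the controls and 34.4 and 35.0 with gemcitabine, and fell by 0.48 (SE 0.12, adjusted p = 0.0436). Neither gene overlapped between the groups, and the GC correction left both called, at 0.54 (SE 0.08) and -0.47 (SE 0.08). Both calls were close to the threshold, and DESeq2 did not call TOP3A (0.45, adjusted p = 0.0501) nor edgeR TDP1 (-0.48, adjusted p = 0.0505). TOP3A was called without control I (0.62) and not without control II (0.34), gemcitabine I (0.46) or gemcitabine II (0.57), and TDP1 was not called without any of the 4 libraries (-0.46 without gemcitabine I, -0.50 without gemcitabine II, -0.50 without control I and -0.49 without control II). TOPBP1 had the largest difference of a member there, 0.60 (SE 0.27, adjusted p = 0.213), with 156 and 174 CPM against 85.4 and 141 in the controls, and was called without PANC1 control II alone (1.01). TOP1 (0.25), TOP2A (-0.10), TOP2B (0.18), TOP1MT (-0.41), TOP3B (-0.09) and TDP2 (0.15) were not called. The 95% intervals were wide for TOP2B (-0.52 to 0.89) and TOP2A (-0.63 to 0.44), whose control libraries were far apart.

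Genistein alone gave no called member in PANC1, where 10 genes were called in all (0.0591%). TOP2A was at 472 and 510 CPM against 344 and 537 in the controls, and the groups overlapped. No member had an unadjusted p under 0.05, and none was called by edgeR or DESeq2 or after the GC correction, which raised the share of genes called to 7.17%.

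Co-treatment in PANC1 gave the same 2 calls as gemcitabine, which shares the control libraries, against 17.1% of genes (10.2% higher and 6.9% lower). TOP3A was at 102.5 and 114.2 CPM, above both controls, and rose by 0.48 (SE 0.12, adjusted p = 0.0294). TDP1 was at 36.6 and 33.7 CPM, below both controls, and fell by 0.49 (SE 0.12, adjusted p = 0.0255). TOP2A at 328 and 239 CPM was below both controls with a log2 difference of -0.62 (SE 0.24, adjusted p = 0.114), and TOP2B at 40.5 and 25.8 CPM overlapped them (-0.55, SE 0.33, adjusted p = 0.28). After the GC correction these 4 members were called, TOP2A at -0.64 (SE 0.09, adjusted p = 0.000524), TOP2B at -0.48 (SE 0.13, adjusted p = 0.0181), TOP3A at 0.42 (SE 0.08) and TDP1 at -0.54 (SE 0.08), against 28.9% of genes. Without control I, TOP1 (-0.45), TOP2A (-0.98) and TOP2B (-0.998) were called with TOP3A (0.58) and TDP1 (-0.52). TOP3A was not called without control II (0.30), co-treatment I (0.54) or co-treatment II (0.41), nor TDP1 without co-treatment I (-0.56) or II (-0.42). No member was called for co-treatment against gemcitabine in PANC1 (0.0177% of genes), also by edgeR or DESeq2, and 1 had an unadjusted p under 0.05. TOP1 was at 84.2 and 71.5 CPM against 105.7 and 109.9 there, with no overlap, and its difference of -0.50 (SE 0.15, adjusted p = 0.24) passed after the GC correction (-0.45, SE 0.08, adjusted p = 0.0133).

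The response to gemcitabine was compared between the lines with a test of the difference itself, for which 15.3% of 17863 genes passed (6.21% higher in PANC1 and 9.06% lower). Among the 9 members, TOP1 passed as higher and TDP1 as lower. In the model of all 16 libraries that this test uses, TOP1 stood at -0.52 in MiaPaCa2 and at 0.20 in PANC1, a difference of 0.73 (SE 0.16, adjusted p = 0.0101) that the GC correction reduced to 0.44 (SE 0.10, adjusted p = 0.00409). TDP1 stood at -0.016 in MiaPaCa2 and at -0.53 in PANC1 in the same model, a difference of -0.51 (SE 0.15, adjusted p = 0.0376), and -0.50 (SE 0.12) after the correction. The TDP1 difference passed in 1 of 8 models that left out a library (without PANC1 control II, -0.56), with -0.40 to -0.58 in the others, and the TOP1 difference in 7 of 8 (0.61 to 0.87). The TOPBP1 difference of 0.86 (SE 0.30, adjusted p = 0.0723) passed after the GC correction (0.54, SE 0.18, adjusted p = 0.0456). Without PANC1 control II, TOPBP1 (1.23), TOP2B (1.23), TOP2A (0.69) and TOP3B (-0.66) passed with TOP1 and TDP1. No member differed by this test in its response to genistein (0.0336% of genes). The response to co-treatment was not tested between the lines.

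The wider cell cycle genes give a setting for these values. Over all genes tested, 14.6% were lower and 15% higher with gemcitabine in MiaPaCa2, and 3.03% lower and 4.49% higher in PANC1. With co-treatment, 20.2% were lower and 20.3% higher in MiaPaCa2, and 6.9% lower and 10.2% higher in PANC1. With genistein alone in MiaPaCa2, 8.31% were called. Of 36 G2 and M phase genes, which do not include TOP2A, 21 were lower and 0 higher with gemcitabine in MiaPaCa2 (median log2 fold change -0.53, against -0.01 over all genes) and 22 lower with co-treatment, led by CENPE (-2.29) and ASPM (-1.68) with gemcitabine, motor and spindle proteins of mitosis. With genistein alone in MiaPaCa2, 7 were lower and 1 higher, ASPM fell by 1.61, and CENPE differed by -2.28 at a level under the FPKM threshold. In PANC1, 7 were lower and 1 higher with gemcitabine and 17 lower and 1 higher with co-treatment, among them PLK1 (-1.22 and -1.58), a mitotic kinase, with medians of -0.14 and -0.52. Without gemcitabine I or II, 1 and 2 were lower in PANC1 with gemcitabine, and without co-treatment II 10 were lower with co-treatment. After the GC correction the numbers lower were 17 and 18 in MiaPaCa2 and 12 and 22 in PANC1. Of 32 S phase genes, 15 were higher and 1 lower with gemcitabine in MiaPaCa2 and 21 higher in PANC1, including CDT1 (1.301) and E2F1 (1.003) in MiaPaCa2 and CDC6 (1.36) and CCNE2 (2.09) in PANC1, which license or start DNA replication. The median was 0.37 in MiaPaCa2 and 0.71 in PANC1, where the count was 6 without gemcitabine I and 5 without gemcitabine II. The GC correction left 15 higher in MiaPaCa2 and 26 in PANC1. The shares over all genes at the head of this paragraph are from the main fit, and the GC correction moved such shares too. List counts after the correction or without single libraries are therefore not to be read against them.

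Partners of the members moved in both directions. Over all genes tested, 15% were higher and 14.6% lower with gemcitabine in MiaPaCa2, and 4.49% higher and 3.03% lower in PANC1. With co-treatment, 20.3% were higher and 20.2% lower in MiaPaCa2, and 10.2% higher and 6.9% lower in PANC1. Of 18 other genes that repair trapped topoisomerases, 5 were lower and 2 higher with gemcitabine in MiaPaCa2, with XRCC4 (-1.31) and RAD50 (-0.91) lower and USP11 (0.96) higher, and 0 higher and 2 lower in PANC1, VCP (-0.59) and XRCC6 (-0.50), with medians of -0.27 and 0.17. After the GC correction 3 were lower and 1 higher in MiaPaCa2, with a median of -0.12, and over all genes 14.6% were lower and 15% higher there before it. The PANC1 list gave 0 lower without gemcitabine I or II, 5 higher without control II and 6 higher after the GC correction. Of 12 partners of topoisomerase III, TDRD3, the tether of TOP3B, fell by 1.19 with gemcitabine and fell by 1.89 with co-treatment in MiaPaCa2, and RMI2, which completes the dissolvasome with TOP3A, rose by 0.61 and 0.87 in PANC1. The counts of this list were 3 higher and 3 lower in MiaPaCa2 and 1 higher in PANC1 with gemcitabine, with medians of -0.12 and 0.33. After the GC correction the MiaPaCa2 list gave 3 higher and 1 lower, and its median turned to 0.19. The PANC1 count was 0 without gemcitabine I, gemcitabine II or control I, 5 without control II and 4 after the GC correction. Of 22 genes around TOPBP1 and the ATR kinase, 6 of 21 tested were higher and 5 lower in MiaPaCa2, and 8 of 22 higher in PANC1, where BRIP1, a helicase, changed most and TIPIN, of the fork protection complex, rose by 1.10. The medians were 0.24 and 0.39, the number lower in MiaPaCa2 was 1 to 3 without single libraries and 1 after the GC correction, and the number higher in PANC1 was 1 without gemcitabine I and 0 without gemcitabine II. Among 19 condensin, cohesin and decatenation genes, 7 were lower and 1 higher with gemcitabine in MiaPaCa2 and 9 and 1 with co-treatment, with STAG1, a cohesin subunit, at -1.83 and -2.62 and SMC4, the condensin ATPase, at -1.12 with gemcitabine. In PANC1 the same list gave 2 and 4 lower, NCAPD2 (-0.56) and PLK1 with gemcitabine, and the medians were -0.25 in MiaPaCa2 and 0.18 in PANC1 with gemcitabine. The PANC1 counts of lower genes were 0 without gemcitabine I or II and, with co-treatment, 9 without control I and after the GC correction. Of 13 genes that maintain mitochondrial DNA, a list that holds TOP1MT, TOP3A and TDP1, 4 were lower with gemcitabine in MiaPaCa2, LIG3 (-0.71) and POLG2 (-0.74) among them, and 2 higher and 1 lower in PANC1, TOP3A and TDP1 being among the latter. The PANC1 counts were 0 and 0 without gemcitabine I or II. Here too the shares over all genes are from the main fit, and do not apply to list counts after the GC correction or without single libraries.

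Correlations among TOP1, TOP2A, TOP2B, TDP2 and TOPBP1 over the 16 libraries, once the mean of each line was taken out, ran from 0.45 (TOP2A and TOPBP1) to 0.94. Pearson's r was 0.94 for TOP1 and TOP2B, 0.94 for TOP2B and TDP2, 0.86 for TOP2A and TOP2B and 0.84 for TOP1 and TOP2A, and -0.76 for TOP2A and TOP3A. These libraries share treatments and GC slopes, so the coefficients describe them and no p is given. Among 13671 genes above 1 FPKM in both lines, TOP2B was most like TAOK1 (0.99), with WAPAL (0.98) also among its closest, TOP2A was most like RAB2A, UBE2K and CDC27 (0.97 each), and TOP1 most like BAZ1B (0.98), WAC (0.97) and ENAH (0.97). These 8 genes had exon GC contents of 36.31 to 47.71%. By Spearman's rho, 1 of the 3 closest genes was the same for TOP1 and for TOP2A.

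Isoforms were described with no test. TOP1 was listed with 1 isoform. The full-length isoform TOP2A-201 held 71.1% of the summed isoform FPKM of TOP2A over all libraries, and TOP2B-201 held 59.8% of that of TOP2B, with a further 21.7% in TOP2B-202, annotated as a target of nonsense-mediated decay. The fall of TOP2B in MiaPaCa2 was seen in TOP2B-201, at 10.85 ± 0.423 FPKM in the controls, 5.70 ± 1.97 with gemcitabine and 4.62 ± 1.46 with co-treatment (SD, n = 2). With genistein, where the gene was not called, this isoform was at 7.42 ± 3.13 FPKM. TOP2B-202 did not fall with gemcitabine, at 2.95 ± 0.489 FPKM in the MiaPaCa2 controls and 4.08 ± 0.838 with the drug, and was at 1.115 ± 1.36 with co-treatment. TOP3A was divided among 4 isoforms of at least 10% each, from 503 to 3661 nucleotides, and the leading one, TOP3A-206 of 582 nucleotides, held 27.3%. In PANC1 this isoform was at 10.2 ± 0.677 FPKM in the controls and 16.9 ± 0.453 with gemcitabine. TDP1-203, the leading TDP1 isoform with 51.1%, was at 12.8 ± 1.53 FPKM in the PANC1 controls and 8.35 ± 2.07 with gemcitabine. It was at 8.365 ± 4.77 FPKM with genistein, where the gene was not called, and at 10.69 ± 0.589 with co-treatment, where the gene was called. The means of this isoform thus did not follow the calls of the gene.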

How the data were processed

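RNA of 16 libraries of MiaPaCa2 and PANC1 was sequenced as poly-A selected, stranded single reads. Per the submitters' processing notes and the study's methods, the authors aligned reads to GRCh37 with TopHat2 2.0.4, removed reads with multiple alignments and used Picard 1.29 and SAMtools. The deposited gene counts are raw read counts from HTSeq 0.6.1, and the deposited FPKM values of genes and isoforms are from Cufflinks 2.1.1. Which annotation release and strand option were used in counting is not given in the sources used here.

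The 9 members and all gene lists were chosen with earlier results of these data known. Counts were filtered with edgeR 4.0.16 (filterByExpr), scaled by TMM and fitted by limma-voom in R 4.3.3 (version 3.58.1 of limma), with the 8 libraries of a line in 1 model and all 16 for comparisons between lines. P-values were adjusted over all genes tested by Benjamini-Hochberg. A call needed 3 things together, an adjusted p no larger than 0.05, a log2 change no smaller than 0.4 in size, and more than 1 FPKM on average in the treated group (in either line for the untreated lines). Interactions and differences between lines were called by adjusted p alone. The GC correction subtracted a loess curve (span 0.3) of log2 counts on exon GC content, known for 55665 of 63677 identifiers, from each library. All 9 members are named, and from each gene list the called genes with the largest changes. Some results that the rule would name are not reported here.

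Alternatives were edgeR's quasi-likelihood test, DESeq2 1.42.0, other scalings, no low-count filter, log2(FPKM + 1) and log2(FPKM + 0.1), other sets of libraries, a replicate block and leaving out each library. On simulated counts, judged by adjusted p alone, limma-voom recovered 72.7% of log2 changes of 1 and 31% of 0.5 for MiaPaCa2 genistein against control (15796 genes). The shares were 23.7% and 1.01% for PANC1 (16612 genes). Of the genes that passed, 8.04% were false in MiaPaCa2 and 4% in PANC1. No shift with GC content was put into the simulated counts. Libraries held 12943482 to 31991860 counted reads.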

Additional observations from a re-analysis of the deposited data

Results flagged for a closer look

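The gemcitabine response of TOP1 and of TDP1 differed between the lines by the test of the difference itself (limma-voom, adjusted over all genes). TOP1 differed by 0.73 on the log2 scale, PANC1 minus MiaPaCa2 (SE 0.16, adjusted p = 0.0101), with both gemcitabine libraries below both controls in MiaPaCa2 and above both in PANC1. TDP1 differed by -0.51 (SE 0.15, adjusted p = 0.0376), with both gemcitabine libraries below both controls in PANC1 and overlapping them in MiaPaCa2. Without single libraries TOP1 differed by 0.61 to 0.87 and TDP1 by -0.58 to -0.40, and in most of these fits TDP1 was not called. The slope of counts on GC content differed between the PANC1 controls (0.28 and -0.07), and its part in these differences was not tested, although values after the GC correction were 0.44 for TOP1 and -0.50 for TDP1.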

How the results depend on the processing

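No value of a member reversed its direction where it was called. Over the fitted differences of the members, 1357 kept their side of the threshold under the settings other than leaving out a library. A further 54 fell short of the threshold and 29 passed it. For members not called in either fit the direction was not checked, and some of these changed sign. Counts of members called that moved by over 1.5 times, or from or to 0, were as follows. For MiaPaCa2 gemcitabine the 3 became 1 with all 16 libraries in a model and after the GC correction, with or without the replicate block, and 6 by adjusted p alone. For MiaPaCa2 genistein the 0 became 1 with library size alone, on log2(FPKM + 1) or log2(FPKM + 0.1), or by adjusted p alone. For MiaPaCa2 co-treatment the 5 became 3 after the GC correction, with or without the block (and 7, a smaller move, by adjusted p alone), and for co-treatment against gemcitabine the 1 became 0 on both FPKM scales and with all 16 libraries. For PANC1 gemcitabine the 2 became 1 with edgeR, DESeq2, DESeq2 size factors, library size alone and both FPKM scales, and 0 with no low-count filter and with only the libraries compared. For PANC1 co-treatment the 2 became 1 with DESeq2 size factors, library size alone, both FPKM scales and no filter, 0 with only the libraries compared, and 4 after the GC correction, with or without the block. For PANC1 co-treatment against gemcitabine the 0 became 1 with all 16 libraries and after the GC correction, with or without the block. For the gemcitabine response between lines the 2 became 1 with library size alone, both FPKM scales, no filter and only the libraries compared. The ratio of TOP2A to TOP2B was 26.8 in MiaPaCa2 and 27.1 in PANC1 controls from counts per exon length.

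Without single libraries the counts ran from 3 to 3 for MiaPaCa2 gemcitabine, 0 to 0 for genistein, 5 to 6 for co-treatment, 0 to 3 for co-treatment against gemcitabine and 0 to 0 for the interaction. In PANC1 they ran from 0 to 1, 0 to 0, 0 to 5, 0 to 0 and 0 to 0 in the same order. They ran from 4 to 7 for the untreated lines, 0 to 6 for the gemcitabine response between lines and 0 to 0 for the genistein response. With the replicate block the counts were 0 for PANC1 gemcitabine, 0 for PANC1 co-treatment and 1 for the gemcitabine response between lines. Correlations of same-numbered deviations between the groups of a line ran from -0.52 to 0.295. They cannot decide whether the replicate numbers pair the samples, since the libraries also differed in their slopes on GC content. Library size in place of TMM moved the median of all genes to 0.17 for PANC1 co-treatment and 0.14 for PANC1 gemcitabine. The list counts after the GC correction and without single libraries were alternatives chosen after seeing the data. The causes of these moves were not tested.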
